A study of Homo sapiens with 4 samples.

Results

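The 31 genes described here are the human semaphorins, plexins and neuropilins: 20 semaphorin genes, 9 plexin genes and 2 neuropilin genes, out of 20037 protein-coding genes of the RefSeq GRCh38 annotation. The family was chosen by an earlier reading of these same data, in which SEMA5A lay in a long stretch of accessible sites seen in LNCaP cells only. The values of SEMA5A are therefore given as a description. Counts of members near an end and inside the genes, classes of inside regions and summits per 100 kb are given with and without it. The remaining counts over the family include it. Open chromatin was mapped by ATAC-seq, a method that uses a transposase to cut accessible DNA. The cells were LNCaP, an androgen-sensitive line from a prostate cancer metastasis labelled as wild type, and enzalutamide-resistant cells derived from them, labelled as treated with enzalutamide, an antiandrogen drug. The labels do not say which resistant subline was used, or whether both resistant libraries came from the same one. The resistant cells stand for selection from 1 parent line only. Each group held 2 libraries, numbered 1 and 2 after the batch tag of the labels (repeat1 and repeat2 in both groups), and nothing in the labels says that the replicates came from separate cultures, so the spread between them may be technical.

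For each library the data are a list of summits, the points of highest signal in the called peaks, each with a score on a −log10 scale. The lists held 117245 and 107344 summits in LNCaP cells and 70866 and 45618 in resistant cells. No read counts were used here, so the depth is unknown, and whether the shorter lists follow from fewer open sites or from a weaker library cannot be told apart. Each gene was given a pair of measures. The near-end measure is the percentile, within its own library, of the highest-scoring summit within 3 kb of either gene end, with 0 where there was none. The inside measure is the number of summits in the gene body more than 3 kb from its ends. A gene was called higher or lower when both resistant libraries lay on one side of both LNCaP libraries. An exact two-sided permutation test on so few libraries cannot give a p below 0.333, so none is printed for any gene. Because a longer list adds weak summits and lifts the percentile of strong ones, the counts of genes called are also given with every list shortened to its 45618 highest scores, called equal numbers below. The gap and runs at SEMA5A, and the shared regions that were higher or lower, are given for the full lists only. The luminal prostate marker KLK3 had a near-end summit in each of the 4 libraries, as did all 6 neuroendocrine markers examined. Of 4 fibroblast markers 4 and 4 had one in LNCaP cells and 3 and 2 in resistant cells, and of 4 blood cell markers 2 and 3 against 3 and 3. PTPRC, which marks white blood cells, had none in any library.

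Semaphorins are guidance proteins, secreted or held in the membrane, that steer axons, vessels and migrating cells. Plexins are their receptors, with a cytoplasmic domain that acts on small GTPases, and neuropilins are co-receptors that most secreted class 3 semaphorins need in order to signal through plexins. Members of the family are also made by epithelial and cancer cells, where they bear on adhesion and migration.

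Promoter windows from 250 bases before to 50 bases after a start were listed by RefSeq (GRCh38.p14) for 27 of the 31 genes. NRP1, SEMA3A, SEMA6A and SEMA6B had no entry. The 4 printed here are that of SEMA5A and the 3 with the largest non-overlapping change near the start among those whose window held summits of at least 2 libraries. They lie at chr5:9546026-9546325 (minus strand), chr12:94262369-94262668 (plus strand), chr1:208244335-208244634 (minus strand) and chr2:205682251-205682550 (plus strand). Capitals mark each summit of any library with 10 bases on either side.
SEMA5A: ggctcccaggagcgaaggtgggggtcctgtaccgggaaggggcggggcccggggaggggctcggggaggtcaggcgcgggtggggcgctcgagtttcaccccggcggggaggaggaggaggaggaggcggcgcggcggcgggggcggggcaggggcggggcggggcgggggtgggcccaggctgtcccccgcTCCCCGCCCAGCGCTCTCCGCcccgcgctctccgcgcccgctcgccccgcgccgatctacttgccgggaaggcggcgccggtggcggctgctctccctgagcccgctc
PLXNC1: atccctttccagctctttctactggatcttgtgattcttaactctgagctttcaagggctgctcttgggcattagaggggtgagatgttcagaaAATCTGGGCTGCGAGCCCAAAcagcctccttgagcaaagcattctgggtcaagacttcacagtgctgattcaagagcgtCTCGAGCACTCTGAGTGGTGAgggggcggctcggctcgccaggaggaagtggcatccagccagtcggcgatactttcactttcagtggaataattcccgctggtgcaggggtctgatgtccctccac
PLXNA2: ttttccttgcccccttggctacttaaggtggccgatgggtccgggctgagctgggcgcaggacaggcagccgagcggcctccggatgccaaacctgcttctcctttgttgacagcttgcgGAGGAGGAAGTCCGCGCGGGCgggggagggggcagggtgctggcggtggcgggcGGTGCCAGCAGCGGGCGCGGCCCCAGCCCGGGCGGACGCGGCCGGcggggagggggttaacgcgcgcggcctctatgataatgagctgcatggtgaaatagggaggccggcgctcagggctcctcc
NRP2: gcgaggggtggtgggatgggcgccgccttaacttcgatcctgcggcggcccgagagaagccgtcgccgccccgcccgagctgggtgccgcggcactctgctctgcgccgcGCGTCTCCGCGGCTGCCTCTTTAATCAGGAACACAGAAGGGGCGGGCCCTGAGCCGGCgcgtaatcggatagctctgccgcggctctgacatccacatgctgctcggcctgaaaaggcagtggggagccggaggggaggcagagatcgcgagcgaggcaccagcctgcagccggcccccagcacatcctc
In the SEMA5A window only resistant library 1 had a summit, 48 bases before the start. In the PLXNC1 window, which lies at an internal start of the gene, only the resistant libraries had summits, 146 bases before the start in library 1 and 67 in library 2. In the PLXNA2 and NRP2 windows all 4 libraries had one. The SEMA5A window was the richest of these in G and C, at 81% with 7 GC boxes (GGGCGG on either strand), against 3 in PLXNA2, 3 in NRP2 and 1 in PLXNC1. A GC box was held by 22 of the 27 windows, or 81.5%, and by 59.7% of all 15843 windows. The E-box CAGCTG was held by 6 windows (22.2%, against 17.7% of all), and the FOXA motif TGTTTAC by those of SEMA3E, SEMA4B and SEMA5B (11.1%, against 2.63%). No member window held the AP-1 motif TGACTCA (3.54% of all windows) on either strand.

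SEMA5A encodes a transmembrane semaphorin with thrombospondin repeats and spans chr5:9035033-9546075. Inside the gene the LNCaP libraries had 19 and 18 summits and the resistant libraries had 0 and 0. With equal numbers the LNCaP counts were 4 and 5 and the resistant counts again 0 and 0, so the groups did not overlap in either setting. The strongest near-end summit of every library was 1386 to 1430 bp inside the 5′ end, and it lay at percentiles 79.1 and 89.3 in LNCaP cells and 60.4 and 49.4 in resistant cells, a change of -29.3 points with a pooled SD of 7.51. With equal numbers these became 46.2 and 74.9 against 38.5 and 49.4, and the groups overlapped. Within 1 kb of an end only resistant library 1 had a summit, a weak one, and the difference was 2.65 points.

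**Figure D1:**
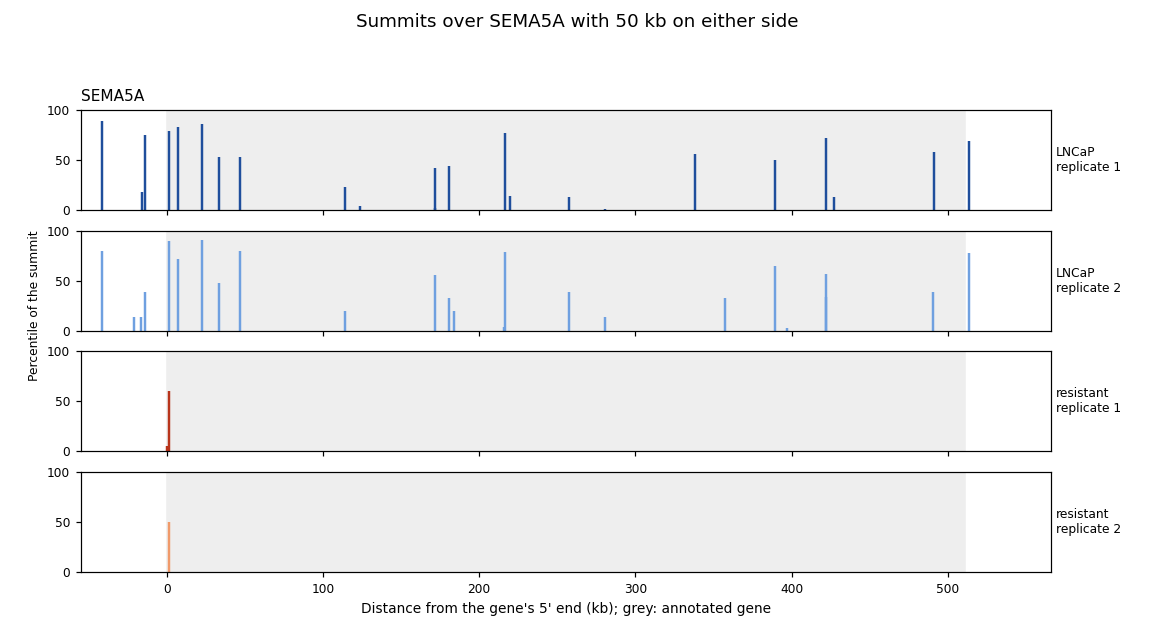
Summits over SEMA5A by library; the x axis is the distance from the gene's 5′ end in kb, the height is the summit's percentile within its library, and the grey area is the annotated gene. LNCaP summits are spread over the gene body, and the resistant libraries have summits at the 5′ end only.

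The stretch without any resistant summit ran from 8870214 to 9544645 on chromosome 5, a length of 674431 bp, and held 23 and 22 LNCaP summits. Besides SEMA5A it held no other protein-coding gene. The sequence around it also had fewer summits in resistant cells, whose lists were shorter as a whole. The 1 Mb below it had 37 and 34 in LNCaP cells and 8 and 6 in resistant cells, and the 1 Mb above it 55 and 55 against 21 and 16. Inside all protein-coding genes the ratio of the resistant to the LNCaP mean was 0.42. The counts of the gap and its surroundings are from the full lists, and whether the surroundings differ from other sequence was not tested. Among the 956 gaps of over 300 kb between neighbouring resistant summits, that of SEMA5A ranked 2 by the smaller of the LNCaP counts, behind a gap at KAZN on chromosome 1 (25 and 25) and level with one at SLIT3 on chromosome 5 (24 and 22). To count runs, summit windows of 250 bp on either side were merged into 150917 regions over the 4 libraries. A region was shared with a summit in all 4, LNCaP-only with one in both LNCaP libraries and in neither resistant library, resistant-only in the reverse case and partial otherwise. With the partial regions set aside, SEMA5A lay in a run of 28 LNCaP-only regions, which ranked 6 in length behind a longest run of 46 on chromosome 15. When a partial region ended a run, the longest held 12 regions, on chromosome 10, and SEMA5A held runs of 5. By none of these 3 counts was the SEMA5A stretch the longest. The strongest LNCaP-only region of the gene was at chr5:9523348-9523997, in its 5′ part, at percentiles 86.3 and 90.6 in LNCaP cells. SEMA5B, the other class 5 gene, had 7 and 8 inside summits in LNCaP cells and 4 and 4 in resistant cells, and with equal numbers 3 and 3 against 2 and 4, which overlap.

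Near the gene ends the family was split evenly. Of the 31 genes, 9 were higher in resistant cells (29%, against 20% of all protein-coding genes), 9 were lower (29%, against 23.9%) and 13 overlapped. Without SEMA5A the counts were 9 higher and 8 lower of 30. With equal numbers 17 were higher and 3 lower, both with and without SEMA5A, where the shares over all protein-coding genes were 47.6% and 6.72%. The split thus moved with the length of the lists in the family as it did over all genes. SEMA3A, SEMA3D and PLXNA4 had no summit within 3 kb of an end in any library. The listed starts of SEMA3D and PLXNA4 lie inside the gene, however, and each had a summit within 3 kb in all 4 libraries. At the SEMA3D start these were at 84.3 and 95.2 in LNCaP cells and 94.1 and 93.8 in resistant cells. At the PLXNA4 start they were at 9.32 and 68.2 against 44.6 and 17.4, and both pairs of groups overlapped.

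**Figure D2:**
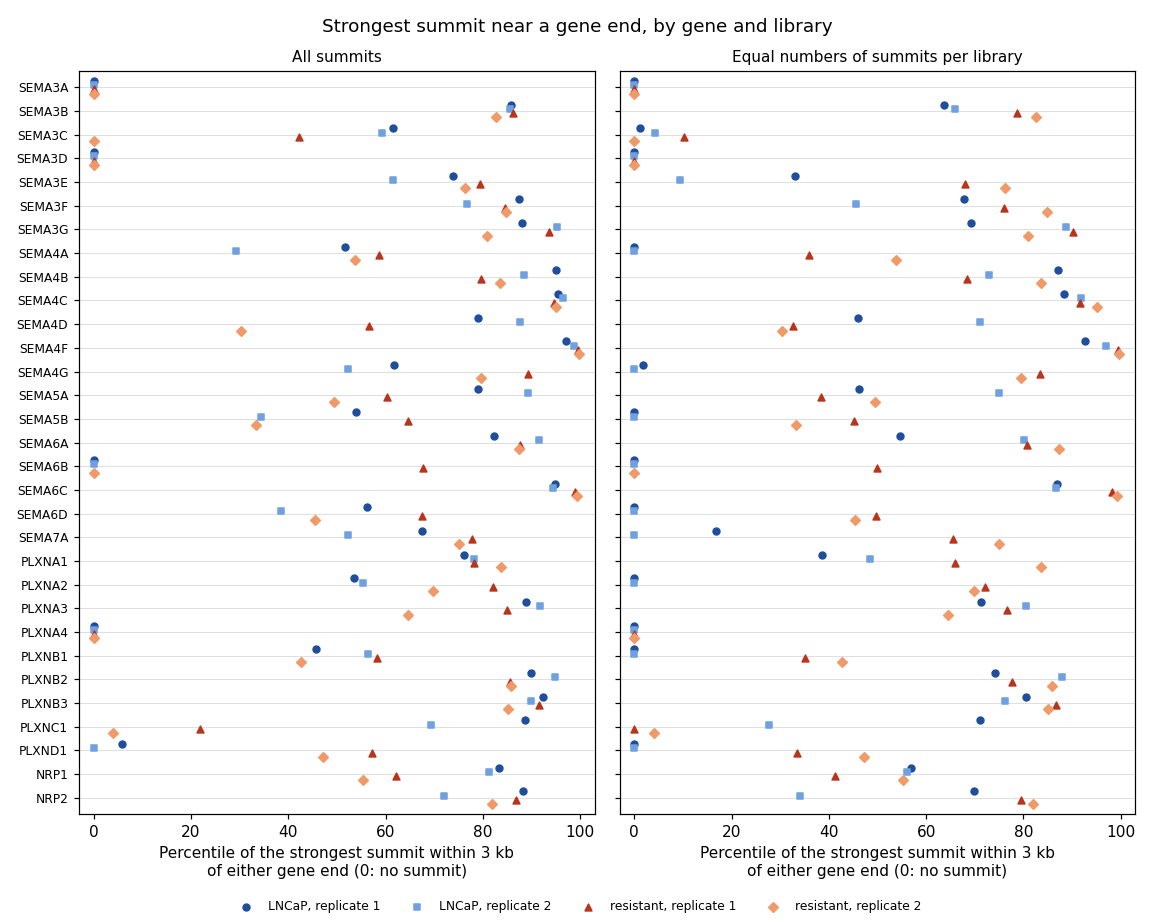
Percentile of the strongest summit within 3 kb of either end of each of the 31 genes (x axis, 0 to 100, with 0 for no summit), 1 point per library, with all summits on the left and with equal numbers on the right. With all summits 9 genes are higher and 9 lower in resistant cells; with equal numbers 17 are higher and 3 lower.

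Among the secreted class 3 ligands, SEMA3E, which binds plexin D1 without a neuropilin, was higher in resistant cells. Its 5′ summit was at 73.9 and 61.5 in LNCaP cells and 79.4 and 76.2 in resistant cells, a rise of 10.1 points (pooled SD 6.40). A region at its other end, chr7:83363131-83363649, was resistant-only at 79.3 and 63.2. SEMA3C, a neuropilin-dependent ligand, was lower, at 61.6 and 59.3 against 42.2 and 0 (a change of -39.3 points, pooled SD 21.1). Just outside the 3 kb limit, however, SEMA3C had a summit 3091 to 3305 bp inside its 5′ end that was strong in every library, at 94.3 and 94.1 in LNCaP cells and 95.0 and 91.3 in resistant cells. That summit sits at a second start of the gene (at position 80919051), and its groups overlapped. SEMA3B, SEMA3F and SEMA3G, all on chromosome 3, had 5′ summits between 76.9 and 95.3 in the 4 libraries, with overlapping groups; that of SEMA3B was also within 3 kb of an end of GNAI2, and that of SEMA3F of an end of LOC124909484.

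All 6 class 4 genes, which encode transmembrane semaphorins, differed without overlap near an end, 3 in each direction, beside 20% higher and 23.9% lower over all protein-coding genes. With equal numbers 3 were higher, 1 was lower and 2, SEMA4B and SEMA4C, overlapped. SEMA4F had one of the strongest summits of the family, 37 to 77 bp from its 5′ end, at 97.1 and 98.7 in LNCaP cells and 99.6 and 99.7 in resistant cells. The rise of 1.74 points (pooled SD 0.81) stayed without overlap with equal numbers. SEMA4A was higher at a summit 1216 to 1336 bp from its 5′ end, with 51.7 and 29.3 against 58.7 and 53.8. With a limit of 1 kb no library had a near-end summit. Another listed start of SEMA4A, inside the gene at position 156153585, had a stronger summit 29 to 46 bp from it in every library. It was at 89.1 and 89.4 in LNCaP cells and 93.8 and 77.3 in resistant cells, which overlap. SEMA4G was at 61.8 and 52.2 in LNCaP cells and at 89.3 and 79.5 in resistant cells, a rise of 27.4 points (pooled SD 6.82), but this site was at the 3′ end and within 3 kb of the ends of MRPL43 and TWNK. At its own start SEMA4G had a summit in the resistant libraries only, at 45.0 and 38.5.

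SEMA4B was lower, at 95.0 and 88.5 against 79.7 and 83.6, with its summits 762 and 832 bp from the 5′ end in LNCaP cells and 311 and 324 bp in resistant cells. A region at its 3′ end, chr15:90230038-90230646, was LNCaP-only at 86.4 and 86.7. SEMA4D, the ligand of plexin B1 also known as CD100, was lower, at 79.0 and 87.7 against 56.6 and 30.3 (a change of -39.9 points, pooled SD 13.9). The 2 groups differed in which end was strongest: the 3′ end in LNCaP cells and the 5′ end in resistant cells. With a limit of 1 kb the change was -16.7 points. SEMA4C, a ligand of plexin B2, changed in opposite directions at its ends. At the 3′ end, within 3 kb of an end of ANKRD39, it was at 95.4 and 96.5 against 94.6 and 95.0, while its start was at 38.4 and 3.93 in LNCaP cells and 75.5 and 65.2 in resistant cells.

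Of the class 6 genes, SEMA6C was higher, with a summit 105 to 120 bp from its 5′ end at 94.9 and 94.3 against 98.9 and 99.3, a rise of 4.46 points (pooled SD 0.33); LYSMD1 has an end within 3 kb of it. SEMA6A and SEMA6D overlapped, and SEMA6B had a near-end summit in resistant library 1 only, at 67.7. That summit lay 2950 bp from the gene end. In resistant library 2 a summit at 60.8 lay 3359 bp from it, just outside the 3 kb limit. Both fell in a resistant-only region, chr19:4556075-4556984. SEMA7A, a lipid-anchored semaphorin that binds plexin C1 and β1 integrins, was higher, at 67.6 and 52.3 against 77.8 and 75.1 (16.5 points, pooled SD 7.76).

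Among the receptors, PLXNC1, which binds SEMA7A, had the largest change with all summits and the limit of 3 kb. Its strongest near-end summit was at 88.7 and 69.3 in LNCaP cells, at the 3′ end, and at 21.8 and 4.03 in resistant cells, at the 5′ end, a change of -66.1 points with a pooled SD of 13.2. With equal numbers the change was -47.3 points, less than the 70.9 points of PLXNA2, and with a limit of 1 kb it was -17.2 points, less than the 49.3 points of PLXND1. At the internal start printed above the order was reversed: neither LNCaP library had a summit within 3 kb of it, and the resistant libraries were at 66.6 and 64.3. PLXND1, the receptor of SEMA3E, was higher by 49.3 points (pooled SD 5.77), with a summit 942 to 956 bp inside its 5′ end at 5.78 and 0 in LNCaP cells and 57.1 and 47.2 in resistant cells. A region inside PLXND1, chr3:129576657-129577192, went the other way, at 92.0 and 92.8 in LNCaP cells against 0.74 and 0 in resistant cells. PLXND1 and SEMA3E, a receptor and its ligand, were thus both higher near an end, while SEMA7A was higher and its receptor PLXNC1 lower. Whether ligands and receptors changed together was not tested.

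PLXNA2 was higher, at 53.6 and 55.3 against 82.0 and 69.7. The value of LNCaP library 1 came from the 3′ end; at the start itself PLXNA2 was at 45.2 and 55.3 against 82.0 and 69.7, and with equal numbers at 0 and 0 against 72.1 and 69.7. PLXNA1 was higher by 3.78 points (pooled SD 2.94), at 76.1 and 78.1 against 78.1 and 83.7, which lie close together. PLXNA3 was lower, at 88.8 and 91.7 near the 5′ end in LNCaP cells and 84.9 and 64.5 at the 3′ end, near LAGE3, in resistant cells. Its ends changed in opposite directions. The shared region at the 5′ end was at 88.8 and 91.7 against 74.4 and 42.6, and that at the 3′ end at 63.9 and 62.3 against 84.9 and 64.5. Of the plexin B genes, PLXNB2 was lower, at 89.9 and 94.9 against 85.6 and 85.8, about 1651 bp from its 5′ end, while PLXNB1 and PLXNB3 overlapped. With a limit of 1 kb the difference turned positive at PLXNA3 (14.1 points) and PLXNB2 (1.30), and with equal numbers at PLXNB2 (0.71), SEMA3C (2.38) and SEMA4C (3.30).

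The neuropilins differed from each other near their ends. NRP1, the co-receptor of SEMA3A, spans chr10:33177493-33334667 and had its strongest summit 579 to 596 bp from the upper end, at 83.2 and 81.4 in LNCaP cells and 62.2 and 55.3 in resistant cells. The change was -23.6 points (pooled SD 3.57), and the groups were still without overlap with equal numbers, at 56.9 and 56.2 against 41.2 and 55.3. NRP2, the co-receptor of SEMA3F, overlapped, at 88.3 and 72.0 against 86.9 and 81.9. In LNCaP cells these values came from a summit 2310 and 2319 bp from the 5′ end. At the start itself, in the window printed above, NRP2 was at 69.5 and 62.0 in LNCaP cells and 86.9 and 81.9 in resistant cells, higher by 18.6 points (pooled SD 4.49).

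Taking the summit nearest to a listed start alone, 10 of the 27 genes with an entry were higher in resistant cells (37.0%, against 22.7% of 15843 protein-coding genes with an entry), 4 were lower (14.8%, against 18.8%) and 13 overlapped. The 10 were NRP2, PLXNA2, PLXNC1, PLXND1, SEMA3E, SEMA4C, SEMA4F, SEMA4G, SEMA6C and SEMA7A. PLXNC1 was among them through its internal start, which was used because its mean percentile over the same libraries was the highest. The region at the annotated 5′ end of PLXNC1, chr12:94148522-94149686, was lower without overlap, at 38.1 and 22.2 against 21.8 and 4.03. The 4 lower were SEMA5A, SEMA4B, PLXNB1 and PLXNB2. For PLXNB1 the values were 45.6 and 56.5 against 42.8 and 42.7. For PLXNB2 the listed start lies inside the gene. It had LNCaP summits more than 2 kb before it, at 58.6 and 56.8, and none within 3 kb in resistant cells. At the annotated 5′ end of PLXNB2 a region, chr22:50307008-50307867, was resistant-only, at 45.0 and 38.9. With equal numbers 20 were higher and 1, PLXNA3, was lower, against 49% and 5.48% of all. All 27 had a summit within 3 kb of the start in at least 1 library and 23 had one in every library (85.2%, against 68.4% of all).

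Inside the genes 26 of the 31 members had a summit in at least 1 library. The 5 without one, SEMA4C, SEMA4G, SEMA6C, PLXNB1 and PLXNB3, are all short, between 11113 and 26457 bp. Of the 26, 14 had fewer summits in resistant cells (53.8%, against 55.9% of 11226 protein-coding genes with an inside summit), 2 had more (7.69%, against 1.92%) and 10 overlapped. The share with fewer was therefore close to that over all genes. Without SEMA5A, 13 of 25 had fewer. With equal numbers 8 of 23 had fewer and 6 had more, where all genes gave 29.3% and 16%. Without SEMA5A these were 7 of 22 with fewer and 6 with more.

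**Figure D3:**
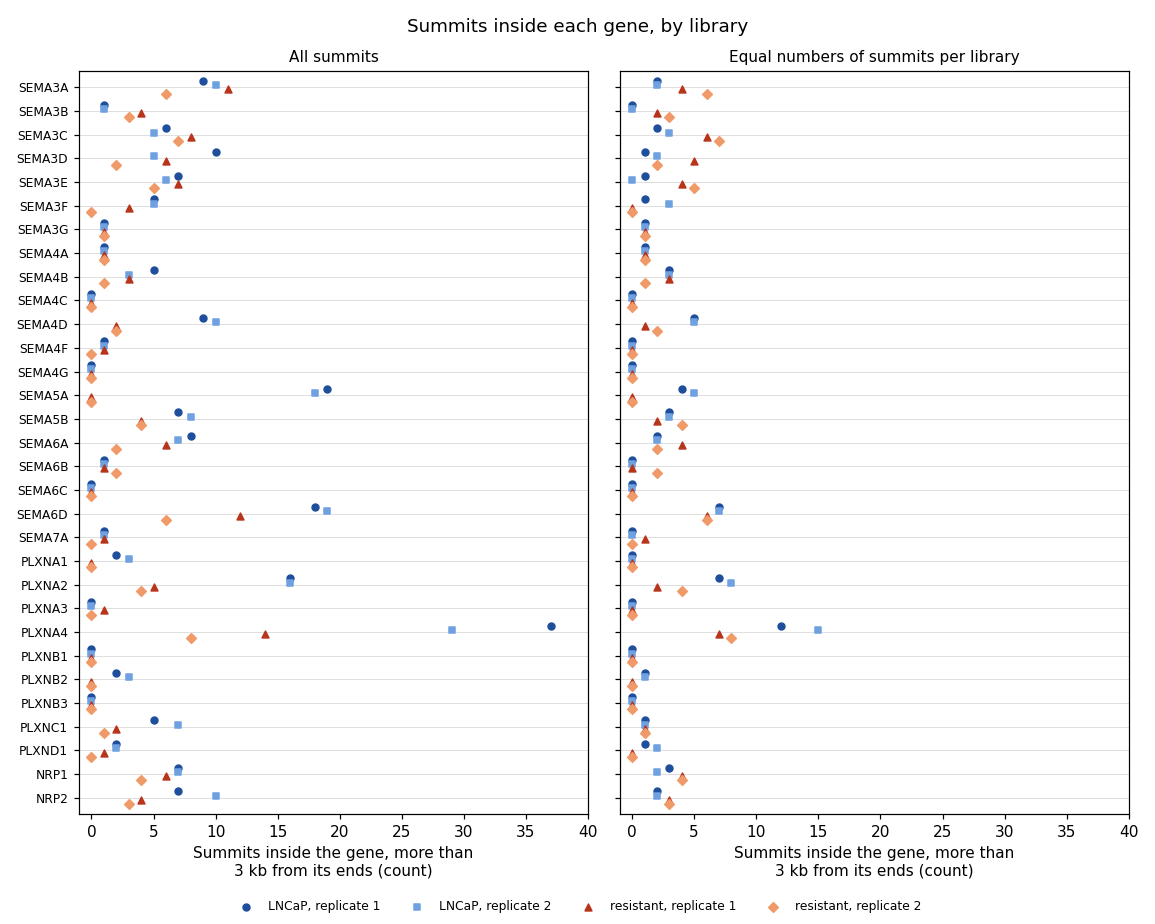
Number of summits inside each gene, more than 3 kb from its ends (x axis), 1 point per library, with all summits on the left and equal numbers on the right. SEMA5A, PLXNA4, PLXNA2 and SEMA4D have more in both LNCaP libraries in both panels; SEMA3B and SEMA3C have more in both resistant libraries in both panels.

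PLXNA4, an A-type plexin on chromosome 7 (chr7:132123340-132648688), held the most summits of the family. It had 37 and 29 inside in LNCaP cells and 14 and 8 in resistant cells, and with equal numbers 12 and 15 against 7 and 8. Of its 43 inside regions 19 were LNCaP-only, 5 were shared and 2 were resistant-only. The strongest LNCaP-only regions were chr7:132471621-132472122, at 92.4 and 88.7, and chr7:132141003-132141505, at 94.2 and 85.7. A shared region, chr7:132225124-132225695, went from 98.5 and 98.9 in LNCaP cells to 53.8 and 33.5 in resistant cells.

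PLXNA2 had 16 and 16 inside summits in LNCaP cells and 5 and 4 in resistant cells, with equal numbers 7 and 8 against 2 and 4. Its start and its body thus differed in direction. Of 24 inside regions 10 were LNCaP-only. SEMA6D, a class 6 semaphorin that binds plexin A1, had 18 and 19 against 12 and 6, and with equal numbers 7 and 7 against 6 and 6. SEMA4D had 9 and 10 against 2 and 2, with equal numbers 5 and 5 against 1 and 2; its LNCaP-only region at chr9:89440719-89441331 was at 90.1 and 86.6.

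PLXNC1 had 5 and 7 inside summits against 2 and 1, but with equal numbers every library had 1. SEMA3F had 5 and 5 against 3 and 0, and its region chr3:50184210-50184744 was the strongest LNCaP-only region of the family, at 91.8 and 93.4. The rest with fewer were SEMA5B, SEMA6A, PLXNA1, PLXNB2 and PLXND1, with differences of 1.5 to 3.5 summits between group means, and the neuropilins. NRP1 had 7 and 7 in LNCaP cells and 6 and 4 in resistant cells, and NRP2 had 7 and 10 against 4 and 3. With equal numbers both turned round without overlap, NRP1 to 3 and 2 against 4 and 4, and NRP2 to 2 and 2 against 3 and 3. Both neuropilins also held resistant-only regions: chr10:33194012-33194531 in NRP1 was at 69.0 and 67.1, chr10:33264131-33264662 in NRP1 at 65.2 and 58.9, and chr2:205763589-205764184 in NRP2 at 53.7 and 48.3.

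**Figure D4:**
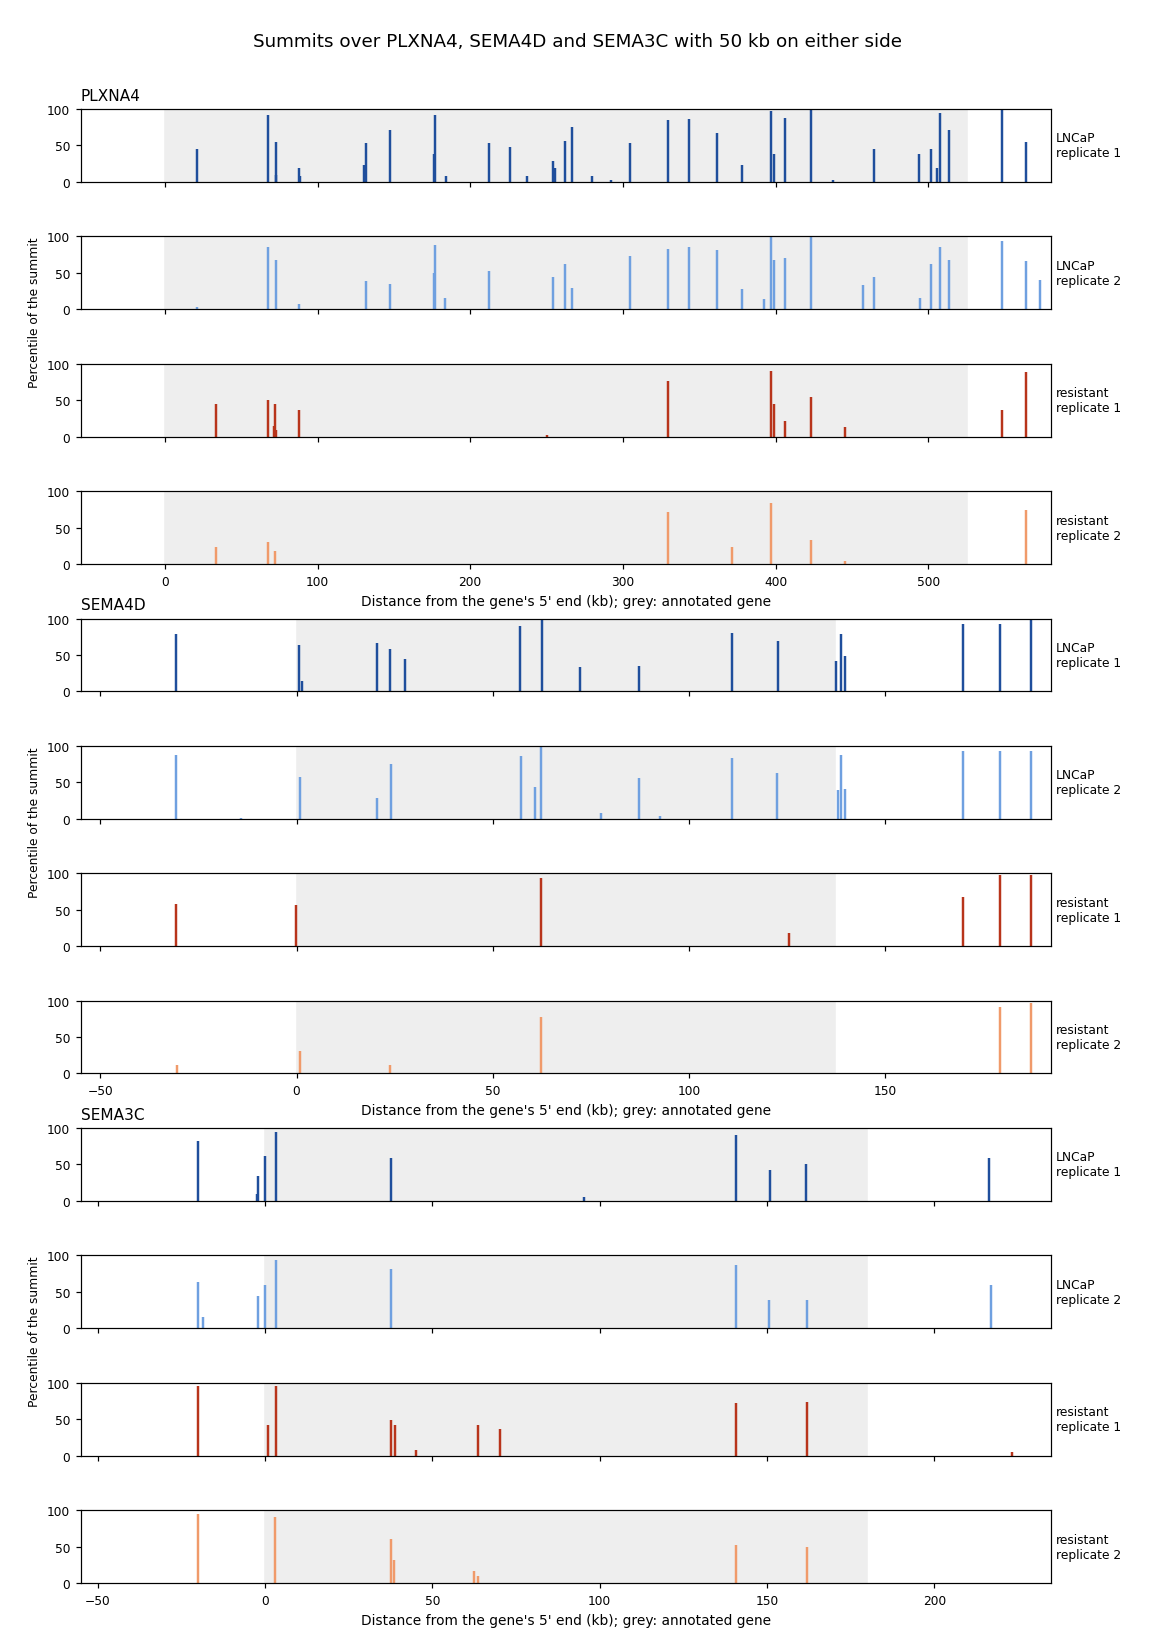
Summits over PLXNA4, SEMA4D and SEMA3C by library; the x axis is the distance from the gene's 5′ end in kb, the height is the summit's percentile within its library, and the grey area is the annotated gene. PLXNA4 and SEMA4D have fewer summits in the resistant libraries, and SEMA3C has more inside the gene.

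Of the 7 class 3 ligands, SEMA3F alone had fewer inside summits in resistant cells, 2 had more and 4 overlapped; whether the class differs from the others was not tested. SEMA3B had 1 and 1 inside summits in LNCaP cells and 4 and 3 in resistant cells, and SEMA3C had 6 and 5 against 8 and 7, although the resistant lists were shorter. A site of SEMA3B fell within the 3 kb limit in LNCaP library 2 (2891 bp from the end) but outside it in the resistant libraries (3043 and 3123 bp). With a score of at least 10 the differences were 1.0 at SEMA3B and 2.0 at SEMA3C, and the groups overlapped at both. SEMA3A (9 and 10 against 11 and 6) and SEMA3E (7 and 6 against 7 and 5) overlapped. With equal numbers SEMA3A (2 and 2 against 4 and 6), SEMA3B (0 and 0 against 2 and 3), SEMA3C (2 and 3 against 6 and 7) and SEMA3E (1 and 0 against 4 and 5) all had more in resistant cells, SEMA3F had fewer, and SEMA3D and SEMA3G overlapped. That is 4 of 7 with more and 1 with fewer, where all genes gave 16% and 29.3%. SEMA3A, SEMA3C, SEMA3D and SEMA3E lie in 1 stretch of chromosome 7, from 80742538 to 85250243. The sequence of that stretch outside the 4 genes had 60 and 56 summits in LNCaP cells and 75 and 47 in resistant cells, and with equal numbers 20 and 19 against 44 and 47. The 4 genes with 3 kb on either side had 36 and 30 against 35 and 22, and with equal numbers 8 and 9 against 22 and 22. With equal numbers both resistant libraries were thus above both LNCaP libraries in the genes and in their surroundings, while with all summits the groups overlapped in each. Whether the genes have any part of their own in it was not tested.

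**Figure D5:**
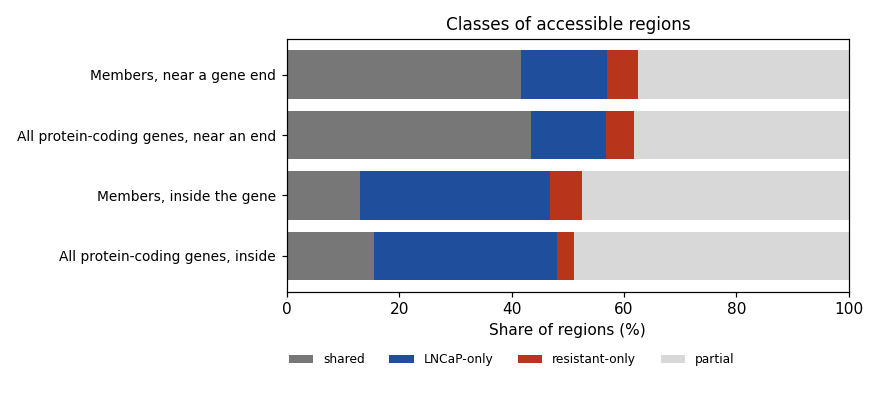
Share of regions (x axis, %) that are shared, LNCaP-only, resistant-only or partial, for the 31 genes and for all protein-coding genes, near a gene end and inside the gene. The 72 near-end and 261 inside regions of the family have shared and LNCaP-only shares within 3 percentage points of those of all protein-coding genes; inside the genes 5.75% of the family's regions are resistant-only, against 3.04%.

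Counted as regions, the family had 72 near its ends. Of these 30 were shared (41.7%, against 43.5% of all near-end regions of protein-coding genes), 11 were LNCaP-only (15.3%, against 13.3%) and 4 were resistant-only (5.56%, against 5.1%). Of 261 regions inside the genes 34 were shared (13.0%, against 15.5%), 88 were LNCaP-only (33.7%, against 32.5%) and 15 were resistant-only (5.75%, against 3.04%). Without SEMA5A there were 75 LNCaP-only and 15 resistant-only regions among 239. Of the 30 shared near-end regions 12 were higher and 10 lower in resistant cells, whereas of the 34 shared inside regions 1, in SEMA3E (chr7:83468174-83468693, at 56.1 and 43.4 against 93.1 and 82.4), was higher and 19 were lower. Over all 31833 shared regions, wherever they lie, 5627 were higher and 13310 lower. No such count was made for the near-end or the inside regions of all genes alone. Whether the contrast between the places is particular to the family was therefore not tested.

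Summits inside the family numbered 4.43 and 4.24 per 100 kb in LNCaP cells and 2.47 and 1.47 in resistant cells. The ratio of the means was 0.45, or 0.50 without SEMA5A, against 0.42 inside all protein-coding genes. With equal numbers the ratio was 0.93 for the family, 1.00 without SEMA5A and 0.82 for all protein-coding genes.

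Among 35 genes that act with the family, 10 co-receptors or other binding partners and 25 effectors, 12 were higher near an end in resistant cells (34.3%) and 8 were lower (22.9%); with equal numbers 25 were higher (71.4%) and 3 lower (8.57%). The shares over all protein-coding genes were 20% and 23.9%, and 47.6% and 6.72% with equal numbers, so the shares of lower genes lay near the background. MICAL1, an oxidase of actin that binds plexins, was at 95.8 and 94.0 in LNCaP cells and had no near-end summit in either resistant library. KDR, the VEGF receptor that pairs with neuropilins, was at 92.3 and 79.5 against 33.0 and 0. RAC1, a GTPase downstream of plexins, was at 98.7 and 95.5 against 85.2 and 78.0. These 3 were lower with equal numbers as well. In the other direction, CRMP1, a mediator of the response to semaphorin 3A, had no near-end summit in LNCaP cells and was at 70.1 and 39.0 in resistant cells. RND1, a GTPase that binds plexins, was at 65.9 and 64.3 against 97.7 and 94.0, and L1CAM, an adhesion molecule that associates with NRP1, at 4.70 and 14.4 against 44.6 and 30.3.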

How the data were processed

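Each library has 1 deposited file of peak summits, which gives positions and a score on a −log10 scale that the authors' peak caller wrote; whether it stems from the p-value or the q-value is not given in the sources used here. Per the submitters' processing notes, the tools included Bowtie2 2.2.5, SAMtools 1.6 and MACS2 2.2.6, with the build hg38. No depth or shift of the transposase cuts is known, so no interval for counting error is given.

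Summits were given the percentile of their score within their library. Positions are 1-based on GRCh38, with gene ends from RefSeq. For a gene with several listed starts, the start with the highest mean percentile over the 4 libraries was used, a choice made after seeing the data. Near-end is within 3 kb of either end. Python 3.11.15, numpy 2.4.6 and pandas 2.3.3 were used. On simulated lists of similar length the calls recovered large planted differences. That check did not count near-end calls among unchanged genes and did not copy the unequal lengths of the real lists, so it does not measure how often calls are false.

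The members and gene lists were chosen with earlier results of these data known. Values in every library were printed for SEMA5A, genes without overlap between groups near an end (up to 10 in each direction), up to 8 genes without overlap inside, and both neuropilins. Promoters were limited to windows holding summits of 2 or more libraries, other than that of SEMA5A, after seeing the data, and 1 further motif searched is not reported here; the pathway genes and single regions named were also picked after their values were seen. Alternatives were a limit of 1 kb, equal numbers of summits, a score of at least 10, other region widths, leaving out each library and pairing the libraries by the batch tag of the labels; equal numbers, leaving out libraries and pairing for the start measure were added after seeing the data.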

Additional observations from a re-analysis of the deposited data

How the results depend on the processing

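Shortening the lists to equal numbers of summits changed the most results. Higher near-end members went from 9 to 17 and lower from 9 to 3, members with fewer inside summits from 14 to 8 and with more from 2 to 6, and starts from 10 to 20 higher and from 4 to 1 lower. Near-end regions became 17 shared, 7 LNCaP-only and 15 resistant-only, inside regions 21 shared, 23 LNCaP-only and 18 resistant-only, and the ratio of summits per 100 kb 0.93. Shares of the region classes over all protein-coding genes are available for the full lists only. The shifts in these classes therefore cannot be read as particular to the family. The near-end change turned positive at SEMA3C (2.38 points), SEMA4C (3.30) and PLXNB2 (0.71), and the inside difference at SEMA6A (1.0), NRP1 (1.5) and NRP2 (1.0). With a limit of 1 kb the near-end change turned positive at SEMA4C (51.1), SEMA5A (2.65), PLXNA3 (14.1) and PLXNB2 (1.30). With a score of at least 10, 9 members had fewer and 0 more inside summits, 19 near-end regions were shared, and inside regions were 18 shared, 46 LNCaP-only and 5 resistant-only. The cause of these shifts was not tested.

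Leaving out each library in turn gave 9 to 14 members higher and 9 to 14 lower near an end, and 14 to 20 with fewer and 2 to 4 with more summits inside. It gave 11 to 14 starts higher and 5 to 9 lower, and a ratio of 0.34 to 0.57. Under the no-overlap rule, leaving out a library or pairing libraries can only keep or add calls of members. The counts of members could therefore not fall, and they do not measure how stable the calls are. Near-end regions ranged over 12 to 19 LNCaP-only, 4 to 11 resistant-only and 28 to 36 shared, and inside regions over 91 to 124, 16 to 41 and 35 to 52. The higher near-end count and the resistant-only counts were largest without resistant library 2, the shortest list, and the lower near-end count without resistant library 1. Counts over 1.5 times the full one were also met for near-end LNCaP-only regions without LNCaP library 1 (17), LNCaP library 2 (19) or resistant library 1 (17), for near-end resistant-only regions without LNCaP library 1 (8), for lower starts without the same 3 libraries (9, 8 and 9), and without resistant library 2 for inside shared regions (52) and more inside summits (4). With the replicate block, comparing libraries of the same batch label, 10 members were higher and 10 lower near an end, 16 had fewer and 2 more inside summits, and 10 starts were higher and 5 lower. The deviations of the paired libraries correlated at 0.04 across 13664 genes. Without read counts, a missing summit at this depth does not show closed chromatin.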
